A study of Mus musculus with 125 samples.

Results

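Endothelial cells that carried transcripts of both Lyve1 and Stab2 made up 156 of 5272 endothelial cells in the single-cell RNA-seq library of mouse brain at embryonic day (E) 9.5. Lyve1 encodes a hyaluronan receptor and Stab2 encodes stabilin-2, a scavenger receptor that takes up hyaluronan and other ligands. The study profiled endothelial cells of mouse organs by ATAC-seq, which marks open chromatin, by RNA-seq, and by single-cell RNA-seq of brain at 5 ages. Also used below are single-cell libraries of E12.5 brain and of brain cortex at postnatal day (P) 8 and in the adult. ATAC-seq libraries labelled E12, P6 and adult are used as well, with endothelial nuclei collected after tamoxifen had switched on a GFP reporter. The E9.5 library came from dissected brain that was digested with collagenase and drawn over magnetic beads against CD31, the product of Pecam1. It is 1 library with no replicate, and its labels give no strain, sex, genotype or number of embryos, so a value below describes that library and carries an interval for counting error only.

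The cells were chosen by their own reads. A barcode had to hold at least 200 genes, at most 10% mitochondrial unique molecular identifiers (UMIs, one per captured transcript copy), and transcripts of at least 3 of the 6 endothelial genes Cdh5, Pecam1, Egfl7, Esam, Tie1 and Kdr. It had to hold no UMI of Tyrobp, a myeloid gene, or of Epcam, an epithelial gene. Of 17176 barcodes, 9897 passed the quality limits, 5644 also held 3 endothelial genes, and 5272 passed the exclusion as well. With at least 1 UMI of both Lyve1 and Stab2 there were 156 cells, 2.96% of these (exact 95% binomial interval 2.52 to 3.45%). Only Lyve1 was seen in 408 cells, only Stab2 in 181 and neither gene in 4527, and this last group is the comparison throughout.

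Lyve1 and Stab2 are best known together from sinusoidal endothelium, such as that of liver, where the cells clear macromolecules from blood by endocytosis. Lyve1 also marks lymphatic endothelium, some embryonic veins and a class of tissue macrophages. Gpr182, an atypical chemokine receptor, is likewise expressed in sinusoidal and lymphatic endothelium. Brain capillaries instead mature towards a barrier with little endocytosis, a process that depends on Wnt signalling.

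The values of the choosing genes are a description only. The 156 cells held 975 UMIs of Lyve1, with a median of 5 per cell and a highest value of 34, and 344 of Stab2, with a median of 1 and a highest value of 10. At the edge of the rule, 26 of them held a single Lyve1 UMI, 88 a single Stab2 UMI and 23 a single UMI of each, while 65 held at least 2 of each. Just outside, the 408 cells with Lyve1 alone held 799 Lyve1 UMIs and 242 of them held only 1. The 181 cells with Stab2 alone held 207 Stab2 UMIs and 161 of them held only 1, so most of that group rests on single molecules.

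The Stab2 promoter is printed because the choice of cells rests on this gene and because a peak of open chromatin overlapped it in all 3 brain and all 4 trunk endothelial ATAC-seq libraries labelled E12, described last. It is the RefSeq sequence of build GRCm38.p6 at chr10:87007893-87008192, minus strand, from 250 bases before to 50 after the transcript start, written 5′ to 3′ with capitals at each GGAA or its reverse TTCC, the core that ETS factors of endothelium bind. The upper gene end used for the peaks, at 87008038, lies within this window but before that transcript start.
Stab2: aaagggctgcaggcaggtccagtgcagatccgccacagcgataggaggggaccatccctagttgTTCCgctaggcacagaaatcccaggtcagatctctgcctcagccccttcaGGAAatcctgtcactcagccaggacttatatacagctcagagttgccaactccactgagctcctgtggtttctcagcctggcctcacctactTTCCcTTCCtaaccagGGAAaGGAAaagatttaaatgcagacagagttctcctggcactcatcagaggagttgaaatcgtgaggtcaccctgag
The window holds GGAA 3 times and TTCC 3 times. On either strand this core occurs in 96.0% of 32815 promoters of this length, so its presence sets Stab2 apart from few genes. The longer AGGAAA, which overlaps that core, occurs at 2 places here and in 29.1% of promoters. TGCTGA, part of the site of MAF factors, and AAGTG, part of the site of NKX2 factors, searched on both strands, are not among the letters of this window; they occur in 19.5% and 46.4% of promoters.

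Cells with both genes were deeper than the comparison cells, with a median of 8707 UMIs (1406 to 32846) against 6777 (975 to 34412). Their summed UMIs were 1535054, against 34460159 in the cells with neither gene. The median mitochondrial share was 5.27% and 5.58%. Shares of cells below are as counted at unequal depth, and those of Gpr182, Maf, Cd36 and Gja4 are given also from cells thinned to 2000 UMIs, which left out 3 cells with both genes and 241 with neither. In 4 equal bins of endothelial cells by rising depth, those with both genes made up 2.35, 2.05, 2.81 and 4.63%.

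Barcodes of other types show how often these genes were seen outside the chosen endothelial cells. The epithelial, erythroid, neural and mesenchymal ones had to hold none of the 6 endothelial genes. That choice favours barcodes with little free endothelial RNA, so their shares are a description and do not measure free RNA. In 105 barcodes with Epcam, at least 3 epithelial genes and none of the 6 endothelial genes, with a median of 6678 UMIs, neither Lyve1 nor Stab2 was seen, which allows a share of up to 2.86% by a floor of 3 counts and has an exact upper bound of 3.45%. In 30 erythroid barcodes, with a median of 4237 UMIs, Lyve1 was seen in 1 (3.33%, 0.0844 to 17.2%) and Stab2 in none. Of 20 neural and 7 mesenchymal barcodes none held either gene, and these numbers allow large shares. Macrophages can express Lyve1 themselves, so they do not measure free RNA either. The 271 barcodes with Tyrobp and at least 3 macrophage genes had a median of 10361 UMIs. Lyve1 was seen in 11.4% of them, Stab2 in 1.85% and both in 0.738%. Among endothelial cells, with a median of 7022 UMIs, Stab2 was seen in 27.7% of cells with Lyve1 (24.0 to 31.6%) and in 3.84% of cells without it (3.31 to 4.43%). These were 156 of 564 and 181 of 4708 cells. These shares involve only the choosing genes and are a description. Within the 4 depth bins the shares of Stab2 with Lyve1 were 37.8, 23.1, 24.2 and 28.8%, against 1.94, 2.83, 3.78 and 7.14% without it.

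The median ratio over endothelial genes was close to that over all genes. All 20 further endothelial genes fixed for this check could be compared, and their median ratio between cells with both genes and cells with neither was 1.03, beside 1.04 over all 7287 genes compared. Here and below a level is the gene's share of all UMIs summed over a group's cells, in CPM (counts scaled to a common library size). A ratio divides the level in cells with both genes by that in cells with neither, with an exact 95% interval from the counts. A gene was compared where the mean of both levels was at least 10 CPM, and a ratio of at least 2 or at most 0.5 was counted. The choosing genes were left out. By this rule 110 genes (1.51%) were at least 2-fold higher and 46 (0.631%) at least 2-fold lower in the cells with both genes. The minimum is on the mean, so 47 of the former and 35 of the latter reached it only through the group where they were higher and had to differ, which leaves 63 and 11 that reached it in both. Among the list genes below, Maf, Tfec, Mrc1, Cd36, Hoxa5, Hoxb2, Hoxb5, Lum, Col1a1, Ttr and Rbp4 entered in this way on the higher side. Dll4, Nrarp, Esm1, Lef1, Etv2, Tbx1, Hand2, Nfatc1, Pfkp, the megakaryocyte genes Gp1bb and Treml1 and the globin gene Hbb-bs did so on the lower side, so counts of their lists are descriptions. Of the 20 endothelial genes, Clec14a, a surface lectin-like protein of vessels, was the only one counted, with 153 CPM against 75.4 (ratio 2.03, 1.77 to 2.32). Its ratio was 1.94 with at least 4 of the 6 endothelial genes required, 1.61 with at least 5, and 1.99 with median ratio scaling. Among the genes of this list not counted, Cd34 had a ratio of 0.674, Emcn of 0.714 and Tek of 1.68.

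Among receptor genes, Gpr182, Mrc1, Colec12 and Cd36 were at least 2-fold higher and Clec1b at least 2-fold lower. Gpr182 was detected in 87 of the 156 cells, 55.8% (47.6 to 63.7%), against 13.3% of the comparison cells (12.3 to 14.3%), or 25.6% against 4.64% at equal depth. In the epithelial barcodes it was seen in 2.86%. Its level was 135 CPM (117 to 155) against 22.3 CPM (20.8 to 24.0), a ratio of 6.04 (5.16 to 7.05). Gpr182 took no part in choosing the cells, but it was named as a marker of them with earlier results known, so it is no independent support.

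Of 17 scavenger and lectin receptor genes, 8 could be compared, 3 of which were at least 2-fold higher and 1 at least 2-fold lower, and the list summed to 499 CPM against 453. Mrc1 and Cd36 could be compared only through their level in the chosen cells. Mrc1, the mannose receptor, had 90 UMIs in 53 cells, 58.6 CPM (47.1 to 72.1) against 3.60 CPM (2.99 to 4.29), a ratio of 16.3 (12.3 to 21.5). Colec12, a collectin scavenger receptor, had 59.3 CPM against 12.5 (ratio 4.74, 3.74 to 5.95). Cd36, which binds fatty acids and oxidised lipoproteins, was held by 32 of 156 cells (20.5%, 14.5 to 27.7%), against 0.353% (0.202 to 0.573%) of cells with neither gene, or 5.90% against 0.0904% at equal depth. Its ratio of 56.1 (30.7 to 107) rests on 40 UMIs against 16, and was 34.9 with at most 5% mitochondrial UMIs and 88.7 from the mean of CPM over cells. That of Mrc1 was 26.2 without cells with 2 genes of another type. Stab1, the paralogue of Stab2, had 190 CPM against 115 (ratio 1.65, 1.46 to 1.86), under the 2-fold mark. Clec1b, a receptor for podoplanin that platelets also carry, went the other way, with 79.5 CPM against 246 (ratio 0.323, 0.268 to 0.386). No UMI of 6 receptors of the list was found in the 156 cells, among them Marco and Fcgr2b.

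Of 24 endocytosis and lysosome genes 23 could be compared, of which 21 had a ratio above 1 and 3 passed 2-fold, with a median of 1.16. Over all 7287 genes compared, 4296 had a ratio above 1, with a median of 1.04. Dab2, a clathrin adaptor, had 130 CPM against 49.6 (ratio 2.61, 2.24 to 3.03). Lgmn, a lysosomal cysteine protease, had 51.5 CPM against 15.8 (3.25, 2.54 to 4.13), and Ehd3, which acts in endosome recycling, had 29.3 against 12.9 (2.28, 1.64 to 3.10). The ratio of Ehd3 was 1.80 with at most 5% mitochondrial UMIs and 1.95 with at least 5 endothelial genes. Ctsd and Cltc, cathepsin D and clathrin heavy chain, had ratios of 1.60 and 1.43. Of 9 genes of hyaluronan metabolism other than Lyve1 and Stab2, 3 could be compared and none passed 2-fold.

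A few further genes lie outside the fixed lists and are named because of their large ratios. Fcgrt, the heavy chain of the neonatal Fc receptor, which rescues antibodies and albumin from degradation, had 100 UMIs in 55 of the 156 cells and a level of 65.1 CPM (53.0 to 79.2) against 3.40 CPM (2.81 to 4.07), a ratio of 19.2 (14.5 to 25.3). Npl, an enzyme of sialic acid breakdown, had a ratio of 6.61 (4.95 to 8.74), and Oit3, a secreted zona pellucida domain protein, 5.61 (3.87 to 7.98). Tcn2, the plasma carrier of vitamin B12, is one of the ranked genes described next, with 104 CPM against 30.4 (3.41, 2.86 to 4.03).

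**Figure D1:**
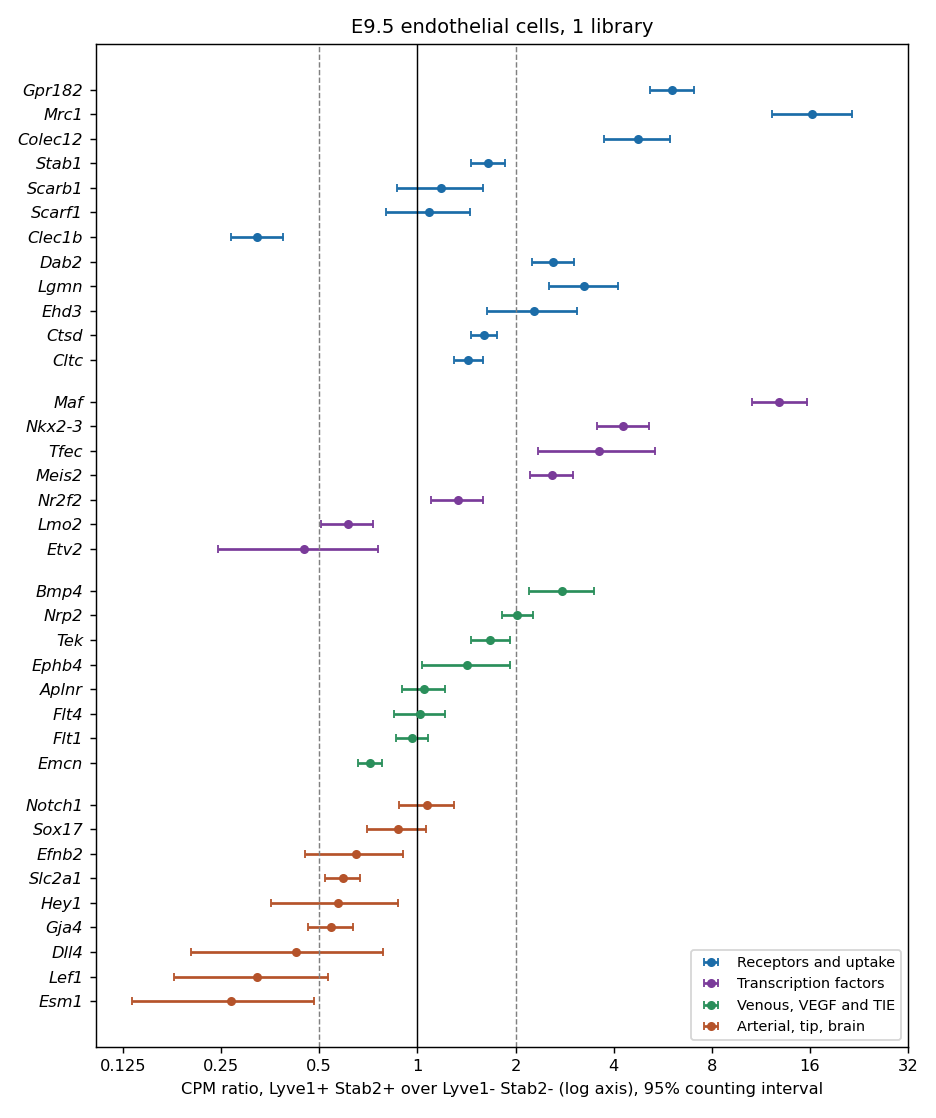
CPM ratio of single genes, cells with both Lyve1 and Stab2 over cells with neither at E9.5, on a log axis; points are ratios of summed UMIs, bars the exact 95% counting intervals, dashed lines the 2-fold limits and colours 4 gene groups. Mrc1 and Maf lie above 8, whereas the arterial, tip and brain genes lie near or below 1.

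A ranking over all genes with a mean level of at least 50 CPM, which also required at least a 1.5-fold difference among cells of similar depth, was headed by Maf. Of its 12 higher genes only Vat1 reached that mean in the comparison cells too (145 and 53.6 CPM), so the ranking is a description. Maf encodes a transcription factor known from sinusoidal and lymphatic endothelium and from macrophages. It was detected in 85 of the 156 cells, 54.5% (46.3 to 62.5%), against 5.43% (4.79 to 6.13%), or 23.0% against 1.55% at equal depth. Its level was 107 CPM (91.7 to 125.2) against 8.33 CPM (7.39 to 9.35), a ratio of 12.9 (10.6 to 15.7). In the epithelial barcodes Maf was seen in 3.81% and Mrc1 in none of 105, whereas in the macrophage barcodes Maf was seen in 68.6% and Mrc1 in 36.9%. After Maf and Gpr182 followed Iqgap2, a scaffold protein (ratio 4.36), and Nkx2-3, a homeodomain factor required for spleen and gut vessels (4.28, or 7.09 with at most 5% mitochondrial UMIs). The next ranks held Tcn2, Tmem37, Tshz2, Vat1, the adhesion protein gene Flrt2 (2.67), Dab2, the homeodomain factor gene Meis2 (2.59) and the growth factor gene Igf1 (2.48).

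The median over transcription factors equalled that over all genes. Of 37 such genes 30 could be compared, 3 were at least 2-fold higher and 2 at least 2-fold lower, and the median ratio was 1.04. The higher ones were Maf, Meis2 and Tfec, a relative of the lysosome regulator TFEB, with 18.9 CPM against 5.25 (3.60, 2.34 to 5.34). The lower ones were Etv2, which starts the endothelial programme in the early embryo (9.12 CPM against 20.3, ratio 0.448), and Tbx1 (5.21 against 15.0, ratio 0.348). Nr2f2, which specifies veins, had a ratio of 1.33 (1.10 to 1.59).

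Of 13 venous genes 9 could be compared, with a median ratio of 1.42 beside 1.04 over all 7287 genes compared. Of the 9, 3 were at least 2-fold higher and none lower, beside 1.51% and 0.631% over all genes compared. These were Dab2, Bmp4, a ligand of the BMP pathway (57.3 CPM against 20.6, ratio 2.78, 2.20 to 3.48), and Nrp2, a co-receptor for VEGF-C and semaphorins (229 against 113, ratio 2.03, 1.81 to 2.26). Each is also on another list: Dab2 on that of endocytosis, Bmp4 on that of BMP, and Nrp2 on the lymphatic and VEGF lists. The ratio of Nrp2 was under 2 in 6 of 13 alternatives, at 1.81 to 1.99, the lowest with at least 5 of the 6 endothelial genes required. Tek, the angiopoietin receptor TIE2, had 147 CPM against 87.8 (1.68, 1.46 to 1.92). Emcn, a sialomucin of veins and capillaries, was the venous gene with a ratio under 1, at 373 CPM against 522 (0.714, 0.656 to 0.777).

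Of 18 arterial genes 13 could be compared. None was at least 2-fold higher, 1 was at least 2-fold lower and 9 lay below 1, with a median ratio of 0.821. Over all 7287 genes compared, 2991 lay below 1. Dll4, a Notch ligand of arteries and sprouting tips, had 10 UMIs in the 156 cells, 6.51 CPM against 15.4 (ratio 0.424, 0.202 to 0.787; 0.572 without cells with 2 genes of another type). Gja4, the arterial gap junction protein connexin 37, had 107 CPM (91.1 to 124) against 197 (192 to 201), a ratio of 0.544 (0.463 to 0.635). The ratio of Gja4 was 0.219 among cells within the depth quartiles of the chosen cells, 0.259 without cells with 2 genes of another type, 0.370 without the deepest 5% of cells and 0.376 from the mean of CPM over cells. With at most 5% mitochondrial UMIs the ratio was nearer 1 instead, at 0.702. Gja4 was found in 23.1% of the chosen cells and 37.1% of the others, or 10.8% and 23.2% at equal depth, and 1 cell held 20.1% of its UMIs in the chosen group. Of 12 Notch pathway genes 7 could be compared, 2 of them (Dll4 and Nrarp) at least 2-fold lower. Of 13 genes of tip cells, which lead sprouts, 6 could be compared and 2 were at least 2-fold lower, Dll4 and Esm1 (7.17 CPM against 26.8, ratio 0.268, 0.133 to 0.481), with a median of 0.650.

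Of 20 genes of brain endothelium, 6 could be compared. None was at least 2-fold higher, 1 was at least 2-fold lower, 2 had a ratio above 1 and 4 below, and the median was 0.812. Over all 7287 genes compared, 4296 lay above 1 and 2991 below. Slc2a1, the glucose transporter of the blood-brain barrier, had 173 CPM (153 to 195) against 293 (287 to 298), a ratio of 0.592 (0.522 to 0.669). Lef1, a mediator of Wnt signalling, had 9.77 CPM against 30.4 (ratio 0.321, 0.179 to 0.532). Foxq1, a forkhead factor of brain endothelium, was too low to be counted, but held 0 UMIs in the 156 cells against 225 in the comparison cells. With 3 UMIs over the group as the floor, it was at least 3.34-fold lower. Cldn5, the tight junction claudin, showed little difference (614 CPM against 586).

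Lymphatic endothelial genes other than Lyve1 had a median ratio close to 1. Of 16 genes 10 could be compared, 1 was at least 2-fold higher (Nrp2) and 1 at least 2-fold lower (Tbx1), and the median was 0.996. Prox1, the factor that commits cells to the lymphatic lineage, had 5 UMIs in 4 of the 156 cells (ratio 0.943, 0.301 to 2.26). Flt4, the VEGF-C receptor, had 83.4 CPM against 81.9 (1.02, 0.846 to 1.22). Pdpn and Reln had 4 and 2 UMIs, and Ccl21a none in either group.

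Other lists fixed for the comparison held few counted genes. Of 8 compared genes of endocardium, the inner lining of the heart, Hand2 and Nfatc1 were at least 2-fold lower and none higher; the ratio of Nfatc1, 0.499, was 0.533 to 0.643 in 5 of 13 alternatives. Of 13 compared BMP and TGF-beta genes only Bmp4 passed 2-fold, and of 8 compared VEGF and TIE genes only Nrp2. None of the 8 compared genes of haemogenic endothelium, which buds off blood cells, passed in either direction. None of 20 S phase and 20 G2/M genes passed 2-fold, with median ratios of 1.00 and 1.07; Mki67, a marker of dividing cells, had a ratio of 1.47 (1.32 to 1.63). None of 9 immediate early genes or 16 matrix genes passed, and of 14 genes of glycolysis Pfkp alone did (0.319, 0.164 to 0.560). Lgals1, encoding galectin-1 and picked after its value was seen, was in 155 of the 156 cells with 1814 CPM against 762 (2.38, 2.29 to 2.48).

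Hox genes record position along the body axis and are off in forebrain and midbrain. Of 39 such genes 7 could be compared; 4 were at least 2-fold higher and none was at least 2-fold lower, but Hoxb5, Hoxa5 and Hoxb2 could be compared only through their level in the chosen cells. Hoxb5 had 62 UMIs in 47 of the 156 cells, 40.4 CPM (31.0 to 51.8) against 9.84 (8.82 to 10.9), a ratio of 4.11 (3.08 to 5.40). Hoxa5 had 25.4 CPM against 7.05 (3.60, 2.50 to 5.07), Hoxb2 16.3 CPM against 7.75, and Hoxb4 48.2 CPM against 23.8 (2.03, 1.58 to 2.58). The posterior gene Hoxa9 had 6 UMIs in 4 of the cells, 3.91 CPM against 11.5 (0.339, 0.124 to 0.745). The library is labelled brain, and 78.2% of the chosen cells and 47.1% of the comparison cells held at least 1 Hox UMI, at unequal depth.

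Markers of other cell types moved with the group, and ratios without the cells that held several of them follow. Of 12 mesenchymal genes 5 could be compared, 4 of them at least 2-fold higher, and the list summed to 192 CPM against 61.2. These UMIs sat in few cells: 65 of 156 held any, 5 cells held 66.1%, and Lum, a matrix proteoglycan gene, had its 52 UMIs in 9 cells. The defining receptor gene Pdgfra had 2 UMIs and Foxd1 none. Of 11 endoderm and liver genes 2 could be compared, both at least 2-fold higher, and the list summed to 89.9 CPM against 23.8. It was found in 34 cells, 5 of which held 75.4% of it, with Ttr in 12 cells, Afp in 9 and Alb and Amn at 0. Of 9 epithelial genes 2 could be compared and both, Krt8 and Krt18, were at least 2-fold higher, with sums of 105.5 and 46.3 CPM. The ratio of Krt8 was 3.18, and 1.46 with at most 5% mitochondrial UMIs.

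Macrophage genes other than Mrc1 and Pf4 held 0 to 19 UMIs each in the chosen cells. Barcodes with a Tyrobp UMI had been left out of both groups, which favours low values of such genes, so these values are a description. Of 16 macrophage genes 7 had no UMI there, among them Csf1r, Cx3cr1, Ptprc, Lyz2 and C1qc, and C1qa and C1qb had 2 and 3 UMIs. At least 1 gene of the list, Mrc1 and Pf4 included, was held by 59.6% of the chosen cells against 36.2%, and 2 or more by 19.9% against 8.59%. Of 3 macrophage genes compared, Mrc1 was at least 2-fold higher and Pf4 at least 2-fold lower; the list summed to 173 CPM against 830, of which Pf4 was 85.3 and 771 CPM. Of 8 megakaryocyte genes, Pf4 included, 5 could be compared and 4 were at least 2-fold lower. Pf4 had 85.3 CPM against 771 (ratio 0.111), with 64.9% of its UMIs in the chosen group held by 1 cell, whereas 2 or more genes of that list were held by 20 of the 156 chosen cells (12.8%) and by 5.15% of the comparison cells. The haemoglobin share of UMIs was 0.175% against 0.326%, and of 12 erythroid genes 5 could be compared, 2 of them at least 2-fold lower, Hba-x (0.486, but 0.509 to 0.891 in 8 of 13 alternatives) and Hbb-bs (0.397); the near-identical globin genes share reads. Neural genes summed to 183 CPM against 184.

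With the cells left out that held 2 or more genes of the mesenchymal or of the endoderm list, 132 chosen cells remained. The ratios of Maf, Mrc1, Fcgrt, Cd36, Gpr182 and Colec12 were then 11.9, 14.9, 18.6, 46.2, 6.25 and 4.70, and those of Gja4, Slc2a1 and Lef1 were 0.605, 0.585 and 0.352. The ratio of Lum went from 11.9 to 6.19, that of Col1a1 from 9.27 to 3.09, and that of Afp from 3.95 to 0.569. Lum, Col1a1 and Afp are on the lists by which cells were left out, so lower levels of them were favoured by that choice. The genes named before them are on neither list, so the difference between the sets is a description. With cells left out that held 2 or more megakaryocyte genes, Pf4 had a ratio of 0.725, Gja4 of 0.397 and Maf of 13.4. Pf4 is itself on that list, so its value too is a description. Both alternatives were chosen after the data were seen.

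Cells with only 1 of the choosing genes lay between the groups for some genes and not for others. Maf had 8.33 CPM in cells with neither gene, 23.4 with Stab2 alone, 17.0 with Lyve1 alone, 107 with both and 206 in the 65 cells with at least 2 UMIs of both. Mrc1 had 3.60, 8.64, 6.96, 58.6 and 115 CPM in the same order, and Fcgrt 3.40, 11.7, 4.38, 65.1 and 118. For these 3 genes a single choosing gene went with a low level and both together with a higher one. They are shown because of their large ratios, so a higher level with both genes than with neither was fixed by that choice and is a description. Gpr182 had 22.3, 19.8, 58.5, 135 and 231 CPM, so cells with Lyve1 alone stood above those with Stab2 alone.

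Nkx2-3 followed Lyve1 only: 21.6 CPM with neither gene, 22.4 with Stab2 alone, 84.5 with Lyve1 alone, 92.5 with both and 81.9 with at least 2 UMIs of both. Meis2 had a similar order, 48.8, 31.0, 93.3, 126 and 178 CPM. Gja4 was lowest in the cells with the most transcripts of both genes, with 197, 162, 228, 107 and 36.4 CPM. Cdkn1c, an inhibitor of cell division and the sixth of the genes ranked lowest, had 763 CPM with neither gene, 436 with Stab2 alone, 1108 with Lyve1 alone and 420 with both.

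**Figure D2:**
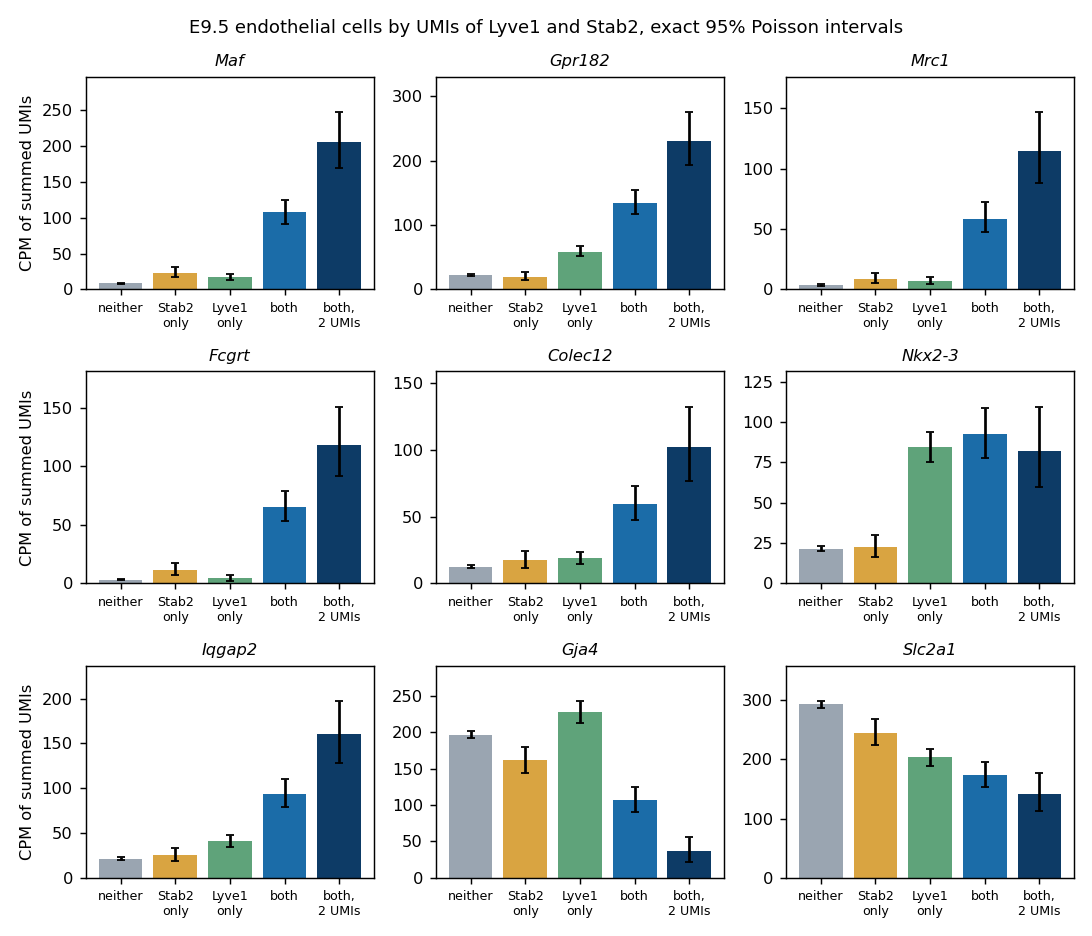
Level of 9 genes, in CPM of summed UMIs on a linear axis from 0, in E9.5 endothelial cells with neither gene, Stab2 alone, Lyve1 alone, both, and at least 2 UMIs of both; bars are exact 95% Poisson intervals. Maf goes from 8.33 to 206 CPM, Nkx2-3 is high wherever Lyve1 is present, and Gja4 is lowest where both genes are highest, at 36.4 CPM. Maf, Mrc1 and Fcgrt are shown because of their large ratios, so their difference between both and neither was fixed by that choice.

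The next count describes how genes with high ratios were spread over the cells. Its 7 genes were picked because they were high in the chosen cells, so a higher count there was fixed by the choice and supports nothing. Of these genes (Gpr182, Maf, Nkx2-3, Mrc1, Fcgrt, Colec12 and Cd36), 85 of the 156 cells held 3 or more (54.5%, 46.3 to 62.5%), against 49 of 4527 comparison cells (1.08%, 0.802 to 1.43%). None of the 7 was found in 16 of the chosen cells (10.3%) and in 66.8% of the others, and 3 chosen cells held all 7. The 85 cells had a median of 8458 UMIs and the 40 chosen cells with 0 or 1 of the genes a median of 9288. The 85 held more of the choosing genes, with medians of 8 Lyve1 and 2 Stab2 UMIs against 2 and 1 in the 40. The split therefore cannot be told apart from the level of the choosing genes. Gja4 was at 29.2 CPM in the 85 cells and 191 CPM in the 40, Emcn at 275 and 491, Lgals1 at 2350 and 977, and Lgmn at 71.7 and 16.9. Cells with neither gene had 197, 522, 762 and 15.8 CPM of these genes. Other genes were ordered otherwise: Hoxb5 was at 42.6 CPM in the 85 cells, 45.9 in the 40 and 9.84 in cells with neither gene, Nrp2 at 258, 196 and 113, Slc2a1 at 135, 191 and 293, and Dab2 at 167, 77.4 and 49.6. The split is a range along a count of genes, and 31 cells with exactly 2 of them lie between.

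**Figure D3:**
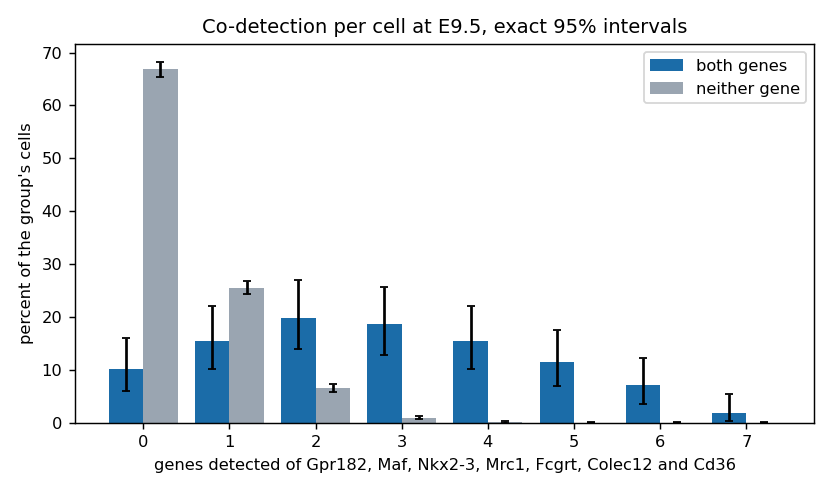
Percent of cells (y axis) by how many of 7 genes were detected in the cell (x axis), for E9.5 endothelial cells with both Lyve1 and Stab2 and with neither; bars are exact 95% binomial intervals. In the group with both genes 54.5% of cells hold 3 or more of the 7, against 1.08% with neither.

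The same rule at later ages found few such cells. These libraries, 1 per age, came from dissected brain at E12.5 and from brain cortex at postnatal day (P) 8 and adult, the latter digested with another enzyme kit, so age cannot be told apart from tissue and preparation. The labels name 1 capture kit for all ages, but the E9.5 library shared 3 barcodes with E12.5 against 29 with P8 and 31 with the adult, and whether the barcode sets of the kits were the same was not tested. Both genes were found in 16 of 5525 endothelial cells at E12.5, 0.290% (0.166 to 0.470%), in 1 of 4732 at P8, and in 0 of 3109 in the adult, which allows a share of up to 0.0965% by the floor of 3 counts and has an exact upper bound of 0.119%. Median depths were 7022, 10085, 8436 and 4884 UMIs from E9.5 to adult. None of the barcodes of the 156 cells occurs in another single-cell library of the series, a check that assumes a common barcode set.

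Lyve1 and Stab2 differed in their course. The share of endothelial cells with Lyve1 was 10.7, 3.02, 0.486 and 0.129% at the 4 ages, and at an equal depth of 2000 UMIs 5.04, 0.937, 0.0429 and 0.00910%. That with Stab2 was 6.39, 12.6, 5.73 and 0.579% as counted, but 2.21, 2.40, 0.958 and 0.175% at equal depth. Its level over all endothelial cells was 13.2 CPM at E9.5 and 12.6 CPM at E12.5, so the higher counted share at E12.5 did not go with a higher level. Lyve1 had 42.4, 6.21, 0.435 and 0.176 CPM. Gpr182 had 29.7, 19.5, 5.77 and 3.17 CPM, Nkx2-3 30.1, 0.589, 0 and 0.0441 CPM, and Maf 13.5, 7.46, 12.7 and 16.8 CPM, so Maf did not follow Lyve1.

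The shares of cells with Stab2 by presence of Lyve1 at E12.5 again involve only the choosing genes. They are a description, and neither they nor their difference from E9.5 was tested. Stab2 was found in 16 of 167 cells with Lyve1, 9.58% (5.58 to 15.1%), and in 12.7% of cells without it (11.9 to 13.7%). Among cells of 5000 to 15000 UMIs the shares were 6.82% and 9.54%, while at E9.5 in the same depth range they were 25.3% and 3.87%. The 16 cells of E12.5 held 30 UMIs of Fcgrt, 126.5 CPM against 28.2 in cells with neither gene (ratio 4.49, 3.02 to 6.43), 16 of Cd36 (6.42, 3.64 to 10.5) and 13 of Gpr182 (2.89, 1.54 to 4.97). Maf had 7 UMIs in the 16 cells (ratio 4.51, 1.80 to 9.38) and Mrc1 had 3 (7.33, 1.49 to 22.1), so both rest on few UMIs. The ratios of Dab2, Nrp2, Stab1 and Lgmn were 2.06, 1.82, 1.76 and 1.74. Nkx2-3 had no UMI in the 16 cells and 0.661 CPM in the others, a level too low to compare (ratio interval 0 to 24.8). Gja4 was at 902 CPM in them against 378 (2.39, 2.08 to 2.73), with its 214 UMIs in 6 cells. Emcn was at 881 CPM against 571 (1.54, 1.34 to 1.77) in all 16 cells, and Slc2a1 at 1362 against 1143 (1.19, 1.07 to 1.33). These 3 genes had ratios below 1 at E9.5 and above 1 at E12.5, and the difference between the ages was not tested. Colec12 had 3 UMIs in the 16 cells (0.886, 0.182 to 2.60).

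**Figure D4:**
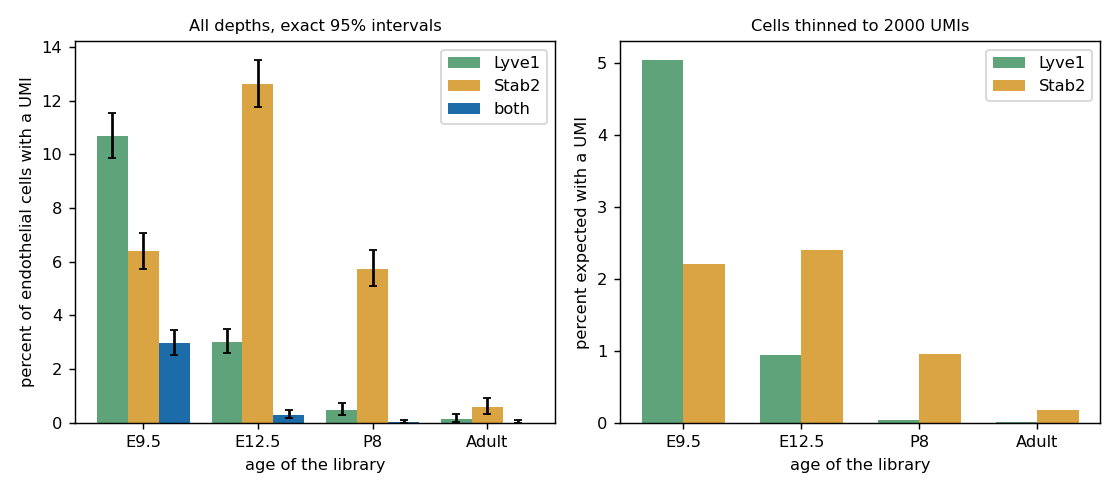
Percent of endothelial cells with a UMI of Lyve1, Stab2 or both by age of the library, as counted with exact 95% binomial intervals (left) and after thinning to 2000 UMIs per cell (right). Lyve1 goes from 10.7% at E9.5 to 0.129% in the adult, whereas Stab2 at equal depth is at 2.21% at E9.5 and 2.40% at E12.5.

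Open chromatin at these genes was read from the peak lists of endothelial nuclei, which were collected after tamoxifen had switched on a GFP reporter; the labels do not name the driver of the reporter. The embryonic libraries are labelled E12, so they are later than the cells above and cover the whole endothelium of an organ. In the RefSeq table of build GRCm38.p6, Lyve1 lies at chr7:110850607-110862953, Stab2 at chr10:86841194-87008038 and Gpr182 at chr10:127749602-127751798. A peak was counted within 500 bp of an end of the gene, as the table gives no strand; among the E12 endothelial libraries every Lyve1 peak so counted lay at the upper end.

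Stab2 had a peak at its upper end, over the promoter printed above, in 3 of 3 brain, 1 of 4 heart and 4 of 4 trunk endothelial libraries of E12. Lyve1 had one in 1 of 3, 3 of 4 and 4 of 4, and Gpr182 in all 11. For scale, 62.1% of protein-coding genes had a peak at an end in all 3 brain libraries, 50.9% in all 4 of heart and 58.6% in all 4 of trunk. Brain and heart differed in their order at this distance, which was not tested and did not hold within 5 kb, where 3 of 3 brain and 4 of 4 heart libraries had a peak at each gene: the −log10 q of the Stab2 peak was 9.41 to 16.4 in brain and 2.11 in the heart library that had it, while that of Lyve1 was 1.65 in the brain library that had it and 5.64 to 6.47 in heart. Heart replicate 3, which lacked both, had the fewest peaks of the E12 endothelial lists, with 39096 peaks against 69606 to 120456 in the others. Of the 3 input libraries of E12, which hold nuclei of the whole tissue, none had a peak at Lyve1 or at the upper end of Stab2, but 1 had one at the other end of Stab2 and all 3 had one at either end of Gpr182, 1 of them at its upper end. After birth, over the labelled P6 and adult libraries together, liver endothelium had peaks at all 3 genes in 4 of 4 libraries. Lung endothelium had one at Lyve1 and at Gpr182 in 4 of 4 and at Stab2 in 2 of 4. Brain endothelium had one at Lyve1 in 0 of 5, at Stab2 in 2 of 5 and at either end of Gpr182 in 4 of 5 (2 of 5 at its upper end), and retina endothelium in 3 of 5, 1 of 5 and 3 of 5. Heart had one in 2 of 4, 0 of 4 and 4 of 4, and kidney in 0 of 4, 0 of 4 and 4 of 4. In these libraries 41.1 to 62.1% of protein-coding genes had a peak at an end. The lists differ in length, from 19464 peaks in adult lung replicate 2 to 92863 in P6 retina replicate 3, and P6 brain replicate 1 had 27160 against 87133 and 79903 in its group. Inputs of postnatal and adult whole brain had a peak at the upper end of Stab2 in 2 of 3 and 1 of 1 libraries. At Lyve1, inputs had a peak in 3 of 3 libraries of P6 lung, 2 of 2 of adult retina, 1 of 3 of P6 retina, 1 of 1 of adult heart and 1 of 2 of P6 liver, so peaks there were not limited to endothelial libraries.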

How the data were processed

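Single-cell files hold UMI counts per gene and barcode, deposited by the authors as unnormalised matrices. The header of the E9.5 matrix names Cell Ranger 4.0.0, and the submitters' processing notes name Seurat 4.0.4 and build mm10. The E9.5, E12.5, P8 and adult matrices were used. E16.5, whose gene names were not at hand, was used only for its barcodes. Rows sharing a symbol were summed (27998 rows to 27933 genes). No doublet caller was run; alternatives leave out cells with other types' genes or the most UMIs. UMIs were summed per group and given as CPM, with exact Poisson, exact conditional binomial (ratio) and exact binomial 95% intervals, which cover counting error only. With 1 library per age no test was made. Thinned shares are exact expectations of drawing 2000 UMIs per cell without replacement. Scripts ran in Python 3.11.15 with numpy 2.4.6, scipy 1.17.1 and pandas 2.3.3.

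Named genes are those of fixed lists and the 12 highest and 12 lowest ratios among genes with a mean of at least 50 CPM whose ratio stayed at least 1.5-fold on its side among cells within the chosen cells' depth quartiles; others are said to be chosen later. Cells, lists and rules were chosen with earlier results of these data known. The ratio and its interval were tested on simulated counts. Peak lists give −log10 of the q-value, per the file headers, from MACS2 run by the authors per library without pooling. The planned gene start was replaced by either gene end because the RefSeq gene coordinates used give no strand. A strand was at hand for Stab2 from its promoter, but not for Lyve1 or Gpr182. Alternatives were tried for cell filters, scaling, gene filters, thinning, peak distance and q, and each replicate left out.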

Additional observations from a re-analysis of the deposited data

How the results depend on the processing

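The number of cells with both genes was 64 with at most 5% mitochondrial UMIs, 100 with at least 5 of 6 endothelial genes (3.65% of endothelial cells), 65 with at least 2 UMIs of both genes (1.23%), 78 within the depth quartiles and 99 without cells with 2 genes of another type. Genes at least 2-fold higher and lower numbered 110 and 46 of 7287 genes by the rule used above. They numbered 172 and 109 of 7311 with at most 5% mitochondrial UMIs and 338 and 179 of 7324 with at least 2 UMIs of both genes. Within the depth quartiles they numbered 191 and 129 of 7227, and from the mean of CPM over cells 185 and 74 of 7278. At a mean of at least 50 CPM they numbered 21 and 4 of 2808. With no CPM minimum and at least 4 UMIs in both groups they numbered 478 and 132 of 10237. The cause was not tested. The mean over cells weights each cell equally and kept the same 156 cells, with 7278 genes compared. The 58 genes followed are genes named in the text, many of them because of large ratios, and the alternatives reuse the same cells or part of them. How many kept their ratio was therefore largely fixed by that choice and is a description. Of the 58, 32 were at least 2-fold higher, and 27 to 32 of these stayed so over the 13 alternatives. All stayed above 1 except Rbp4 (0.289 with at most 5% mitochondrial UMIs) and Afp. Afp had 0.817 without cells with 2 genes of another type and 0.569 without those with 2 mesenchymal or endoderm genes, a choice that used a list with Afp on it. The 11 at least 2-fold lower all stayed below 1, and 7 to 11 stayed at least 2-fold lower. Within 5 kb, 3 brain libraries had a Lyve1 peak and 4 heart libraries a Stab2 peak; at a −log10 q of at least 5 both were 0, and Lyve1 and Stab2 each had 2 in trunk. With the peak over the gene end itself, Lyve1 had 2 in trunk. Leaving out replicates in turn gave 0 to 1 for Lyve1 in brain, with 0 without replicate 2, and 0 to 1 for Stab2 in heart, with 0 without replicate 4. No paired analysis was possible because there is 1 library per age, which holds for the single-cell values only. Some endothelial and input ATAC-seq groups share replicate numbers, but a comparison by replicate number was not run. Peaks were counted library by library, without testing endothelial against input libraries, so no result here comes from a test.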

Other observations

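Several genes outside the lists were also high in the E9.5 cells with both Lyve1 and Stab2; they were picked after their values were seen. Col14a1, a fibril-associated collagen, had 52 UMIs in 34 of the 156 cells, 33.9 CPM against 1.51 (ratio 22.4, 15.0 to 33.6). Without cells holding 2 mesenchymal or endoderm genes its ratio was 24.2 and that of Col1a1 was 3.09. Col1a1 is on the mesenchymal list by which those cells were left out and Col14a1 is not, so the values do not set them apart. Foxf1, a forkhead factor of visceral mesoderm and lung vessels, fell short of the minimum for counting but had 27 UMIs against 68, 17.6 CPM against 1.97 (8.91, 5.49 to 14.1).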
